A study of Mus musculus with 24 samples.

Results

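The 8 genes described here are App, Bace1, Psen2, Mapt, Apoe, Clu, Mme and Ide, which act in the making and removal of amyloid-beta, in tau or as inherited modifiers of dementia risk. They were selected by gene name from the 54532 genes of a table of brain expression, and each name matched 1 gene. Expression was given as FPKM, the fragments (reads) counted on a gene divided by its length and by the size of the library. The question for these genes was whether their brain transcripts differed after infusion of angiotensin II, a peptide hormone that raises blood pressure, and after treatment with amnion epithelial cells, a human cell preparation made from the amniotic membrane of the placenta.

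The 24 mice were young adult wild-type C57Bl6 males in 4 groups of 6. The vehicle group was infused with saline, and the angiotensin II group with 0.7 mg/kg/day of angiotensin II, for 2 weeks by osmotic minipump under the skin. Mice of the vehicle + amnion epithelial cells and angiotensin II + amnion epithelial cells groups had the same infusions and a single injection of the cells into the tail vein at the time of surgery, while the other mice had an injection of saline. The RNA came from brain hemispheres and not from dissected regions, and no disease gene was altered in any group, so these are levels of the normal mouse genes. In such bulk tissue, fewer cells of a type and less RNA per cell cannot be told apart.

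Amyloid-beta is cut from the amyloid precursor protein by beta-secretase and then by gamma-secretase, and it is degraded by peptidases or carried away on apolipoproteins. Tau binds the microtubules of axons and collects as phosphorylated tangles in Alzheimer's disease. In the brain, neurons are the main source of amyloid precursor protein, beta-secretase and tau, whereas astrocytes are the main source of apolipoprotein E and clusterin.

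The 24 libraries held 16536449 to 25308700 recovered reads each. They fell into 2 sets that no label names. Summed over all genes, FPKM came to between 277116 and 298301 in 18 libraries. The sum lay between 338334 and 348597 in the remaining 6, which were replicates 5 and 6 with vehicle, replicate 5 with angiotensin II, replicate 6 with vehicle + amnion epithelial cells, and replicates 5 and 6 with angiotensin II + amnion epithelial cells. A library whose reads lie more on short genes has a larger sum by construction, because each read is divided by gene length. Markers of neurons, astrocytes, microglia and oligodendrocytes were above 0 in every mouse, as a brain sample should have them. The 4 pituitary hormone genes summed to 1572 FPKM in 1 angiotensin II library of the 18 and to at most 26.8 in the mice of the other groups. Comparisons of groups are therefore given over all 24 mice and, for many, also with the set of libraries in the fit or in the 18 libraries alone. Correlations from mouse to mouse are given within the 18 libraries, some with the value in the 6 beside them.

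The genes were expressed over a range from the most abundant brain transcripts to a scarcely detected one. Averaged over the 24 mice, Apoe was at 920 ± 262 FPKM (SD, n = 24), which ranked 15 among all genes. Clu followed at 242 ± 36.6 FPKM, App at 112 ± 10.8 FPKM and Mapt at 74.4 ± 4.17 FPKM. Ide at 13.96 ± 2.14 FPKM, Bace1 at 11.6 ± 1.68 FPKM and Psen2 at 5.16 ± 0.788 FPKM formed a lower tier, and Mme was lowest at 0.710 ± 0.132 FPKM, rank 14728. Each of the 24 mice had this same order. The ranges over mice did not overlap between neighbours in the order except for Ide and Bace1, whose ranges met over the 24 mice and were apart within the 18 libraries. FPKM is divided by the length deposited for each gene, but levels still shifted with gene length between the library sets, as described below. The distances between genes are therefore approximate, although the order of levels was the same in both sets.

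**Figure D1:**
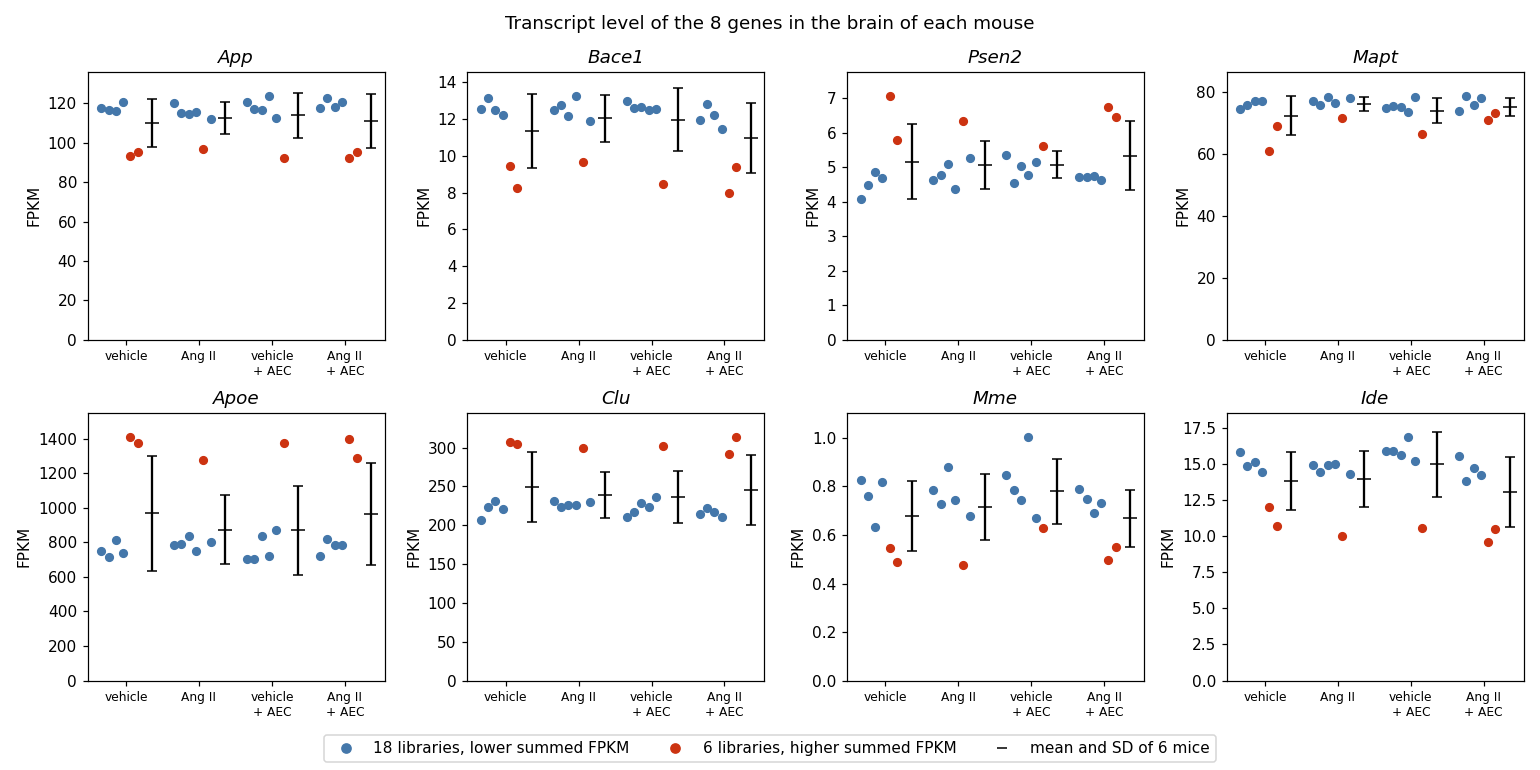
FPKM of each of the 8 genes (vertical axes from 0) in each mouse, by treatment group (Ang II, angiotensin II; AEC, amnion epithelial cells), with points coloured by library set and a bar for the mean and SD of 6 mice. The 6 libraries with the higher summed FPKM lie above the other 18 for Apoe, Clu and Psen2 and below them for the other 5 genes, while the groups overlap in every panel.

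App encodes the amyloid precursor protein (ENSMUSG00000022892, chromosome 16, 84949685 to 85173766 of GRCm38, minus strand). It was measured with 20844 to 36642 reads per mouse. The lowest, median and highest levels were 93.3, 116 and 121 FPKM in vehicle mice. In angiotensin II mice they were 97.1, 115 and 120 FPKM. With the cells they were 92.1, 117 and 124 FPKM in vehicle mice and 92.2, 118 and 123 FPKM in angiotensin II mice. The groups overlapped over nearly their whole width, and the lowest mice of each group were those of the set of 6 libraries. Within the 18 libraries, App ranged from 112 to 124 FPKM, with a coefficient of variation of 2.72%.

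Bace1 encodes beta-secretase, which makes the first cut of the precursor on the path to amyloid-beta (ENSMUSG00000032086, chromosome 9, 45838580 to 45864399, plus strand). Its lowest, median and highest levels were 8.23, 12.4 and 13.1 FPKM in vehicle mice, and 9.64, 12.3 and 13.2 FPKM in angiotensin II mice. They were 8.48, 12.6 and 12.96 FPKM with vehicle + amnion epithelial cells, and 7.96, 11.7 and 12.8 FPKM with angiotensin II + amnion epithelial cells. The 4 groups overlapped, with the lowest mouse and the lowest median in the angiotensin II + amnion epithelial cells group. Exons of Gm16536, Rnf214 and Gm49338 overlap those of Bace1 on the opposite strand, and their mean levels were 9.82, 6.33 and 2.63 FPKM. Whether the counting used strand is not stated, so part of the Bace1 value could belong to these genes.

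Psen2 encodes presenilin 2, a catalytic subunit of gamma-secretase (ENSMUSG00000010609, chromosome 1, 180227004 to 180263438, minus strand). With 327 to 638 reads per mouse, the counting error of a single mouse was up to 5.53%. Its levels were 4.06, 4.77 and 7.05 FPKM (lowest, median and highest) in vehicle mice, and 4.36, 4.94 and 6.33 FPKM in angiotensin II mice. They were 4.53, 5.09 and 5.60 FPKM with vehicle + amnion epithelial cells, and 4.63, 4.73 and 6.75 FPKM with angiotensin II + amnion epithelial cells. The groups overlapped, and every mouse at 5.60 FPKM or above belonged to the set of 6 libraries.

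Mme and Ide encode neprilysin and the insulin-degrading enzyme, the peptidases best known for degrading amyloid-beta. Mme (ENSMUSG00000027820, chromosome 3, 63241537 to 63386030, plus strand) rested on 92 to 233 reads per mouse, and its counting error reached 10.4%. It was at 0.489, 0.696 and 0.825 FPKM (lowest, median and highest) in vehicle mice, 0.477, 0.736 and 0.879 FPKM with angiotensin II, 0.627, 0.766 and 1.003 FPKM with vehicle + amnion epithelial cells, and 0.495, 0.713 and 0.790 FPKM with angiotensin II + amnion epithelial cells. The vehicle + amnion epithelial cells group had the highest mouse and the highest median, within a range that overlapped each other group. Ide (ENSMUSG00000056999, chromosome 19, 37268743 to 37337852, minus strand) was likewise highest in that group by its median. It was at 10.7, 14.6 and 15.8 FPKM in vehicle mice, 10.02, 14.7 and 14.98 FPKM with angiotensin II, 10.55, 15.8 and 16.9 FPKM with vehicle + amnion epithelial cells, and 9.61, 14.03 and 15.5 FPKM with angiotensin II + amnion epithelial cells. These groups overlapped too.

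Mapt encodes tau (ENSMUSG00000018411, chromosome 11, 104231390 to 104332090, plus strand) and was the steadiest of the 8 genes, with a coefficient of variation of 5.60% over the 24 mice and 2.08% within the 18 libraries. Its lowest, median and highest levels were 61.1, 75.2 and 77.0 FPKM in vehicle mice, and 71.7, 76.7 and 78.3 FPKM in angiotensin II mice. They were 66.4, 75.0 and 78.5 FPKM with vehicle + amnion epithelial cells, and 71.0, 75.0 and 78.7 FPKM with angiotensin II + amnion epithelial cells. All 4 groups reached a similar highest value, and the groups overlapped.

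Apoe encodes apolipoprotein E, the main lipid carrier of the brain (ENSMUSG00000002985, chromosome 7, 19696109 to 19699188, minus strand), and Clu encodes clusterin, also called apolipoprotein J (ENSMUSG00000022037, chromosome 14, 65968483 to 65981547, plus strand). Apoe was the most variable of the 8 genes over the 24 mice, with a coefficient of variation of 28.5%. Within the 18 libraries its coefficient was 6.60%, below those of Mme (11.2%) and Psen2 (6.74%). Its lowest, median and highest levels were 716, 783 and 1409 FPKM in vehicle mice, 749, 795 and 1278 FPKM with angiotensin II, 703, 780 and 1378 FPKM with vehicle + amnion epithelial cells, and 721, 803 and 1400 FPKM with angiotensin II + amnion epithelial cells. The medians lay close together, and the highest mice of each group were those of the set of 6 libraries. Clu was at 206, 227 and 307 FPKM in vehicle mice, 223, 228 and 299 FPKM with angiotensin II, 211, 226 and 302 FPKM with vehicle + amnion epithelial cells, and 211, 219 and 313 FPKM with angiotensin II + amnion epithelial cells. Its groups overlapped in the same way.

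The first comparison asked whether angiotensin II infusion changed these transcripts relative to vehicle. None was detected (0 of 8 by adjusted p-value under 0.05 and 0 of 8 by unadjusted p-value under 0.05; limma on log2(FPKM + 0.1), 4 groups in one fit). The unadjusted threshold was passed by 2.21% of all 27286 genes tested, and the adjusted one by 0.0%. Among the 13649 genes averaging 1 FPKM or more, which include each of the 8 but Mme, it was 0.652% unadjusted. That share was 0.835%, 0.762% and 0.835% in the 2 comparisons and the interaction that follow. A threshold of 0.05 passes more genes than this when nothing differs. This fit was therefore strict, and 0 of 8 says little about the absence of a change. The differences in log2(FPKM + 0.1) ran from -0.11 (SE 0.224) for Apoe to 0.098 (SE 0.132) for Bace1, with a median over the 8 genes of 0.025 and over all genes of 0.021. Mapt had the lowest p-value, at 72.4 ± 6.30 FPKM in vehicle mice and 76.2 ± 2.39 FPKM in angiotensin II mice (SD, 6 each; 1.05-fold, 95% interval 0.973 to 1.14; exact permutation test, two-sided, p = 0.208; limma adjusted p = 0.994). For App, the interval of the fold was 0.900 to 1.17, and for Apoe it was 0.673 to 1.28. Any fold of Apoe within that interval, including no change, was compatible with these values.

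When the set of libraries was added to the fit, the standard errors of these differences became 1.54 to 3.95 times smaller. Again 0 of 8 passed the unadjusted threshold, beside 3.46% of all genes and 2.46% of those averaging 1 FPKM or more. In this fit the latter share was 2.99%, 2.37% and 2.21% in the 2 comparisons and the interaction that follow. A threshold of 0.05 passes more genes than this when nothing differs, so here too 0 of 8 says little about the absence of a change. In angiotensin II against vehicle, the sign of the difference turned for Apoe, Clu, App, Psen2, Ide and Mme. The lowest p-values were those of Ide, whose difference was -0.073 in log2(FPKM + 0.1) (SE 0.039; limma adjusted p = 1, unadjusted p = 0.0777), and Mapt, which differed by 0.052 (SE 0.030; limma adjusted p = 1, unadjusted p = 0.0994). In this fit the intervals of the fold were 0.936 to 1.11 for Apoe, 0.952 to 1.02 for App and 0.993 to 1.08 for Mapt.

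The second comparison asked whether the cells changed the transcripts in mice infused with angiotensin II. It shares the angiotensin II mice with the first. No difference was detected for any of the 8 genes (0 of 8 at an unadjusted p-value under 0.05 by limma, beside 2.54% of all genes, and 0 of 8 adjusted, beside 0.0%). The differences in log2(FPKM + 0.1) ran from -0.14 (SE 0.132) for Bace1 to 0.12 (SE 0.224) for Apoe. Bace1 was at 12.03 ± 1.26 FPKM without the cells and 10.97 ± 1.89 FPKM with them (SD, n = 6 each), a fold of 0.905 with an interval of 0.749 to 1.09 (exact permutation test, two-sided, p = 0.249). With the set of libraries in the fit, Bace1 differed by -0.063 (SE 0.042) and Clu by -0.053 (SE 0.032), each with a limma adjusted p of 1, and 0 of 8 passed the unadjusted threshold, beside 3.90% of all genes.

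Clu was the only one of the 8 genes whose groups did not overlap in this comparison once the 6 libraries were left out. The 4 remaining angiotensin II + amnion epithelial cells mice were at 211 to 222 FPKM, and the 5 remaining angiotensin II mice at 223 to 231 FPKM. Of all genes tested, 0.707% had the former group below the latter in this way. The 8 genes were checked for separation in either direction, and the share of all genes apart in the other direction was not counted. The difference was -0.072 in log2(FPKM + 0.1) (SE 0.038; two-sided exact permutation p = 0.00794, which is the lowest possible for 4 mice against 5). The limma test of the same mice gave an unadjusted p of 0.0737 and an adjusted p of 0.998, and over all 12 mice the groups overlapped and the difference was 0.023.

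In vehicle-infused mice, the third comparison, the cells left the 8 genes without a detected difference. At an unadjusted p-value under 0.05 by limma the count was 0 of 8, beside 2.41% of all genes, and at an adjusted one 0 of 8, beside 0.0%. This comparison shares the vehicle mice with the first. Mme had the largest difference, at 0.779 ± 0.135 FPKM with vehicle + amnion epithelial cells and 0.678 ± 0.144 FPKM with vehicle (SD, n = 6 each; 1.14-fold, interval 0.908 to 1.42; exact permutation test, two-sided, p = 0.229). Apoe came next at 0.912-fold (interval 0.662 to 1.26), and Ide was at 1.08-fold (interval 0.891 to 1.32). With the set of libraries in the fit, 0 of 8 passed, beside 3.54% of all genes, and Apoe was at 1.001-fold (interval 0.921 to 1.09).

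By limma, Psen2 was the single gene of the 8 to reach an unadjusted p-value under 0.05 in these fits, and it did so in the third comparison with the 6 libraries left out. The 4 remaining vehicle mice were at 4.06, 4.47, 4.69 and 4.85 FPKM, and the 5 remaining vehicle + amnion epithelial cells mice at 4.53, 4.78, 5.03, 5.15 and 5.34 FPKM. The groups overlapped. The difference was 0.13 in log2(FPKM + 0.1) (SE 0.063; limma unadjusted p = 0.0478, adjusted p = 1; exact permutation test, two-sided, p = 0.0873), and 4.18% of all genes passed the same unadjusted threshold. Over all 12 mice the difference was -0.0015.

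The interaction asked whether the effect of the cells differed between mice with and without angiotensin II. It was not detected for any of the 8 genes (0 of 8 at an unadjusted p-value under 0.05 by limma, beside 2.54% of all genes, and 0 of 8 adjusted, beside 0.0%). The estimates ran from -0.27 (SE 0.222) for Mme to 0.25 (SE 0.316) for Apoe in log2(FPKM + 0.1). With the set of libraries in the fit they ran from -0.12 for Mme to 0.033 for App, and 0 of 8 passed, beside 3.41% of all genes.

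**Figure D2:**
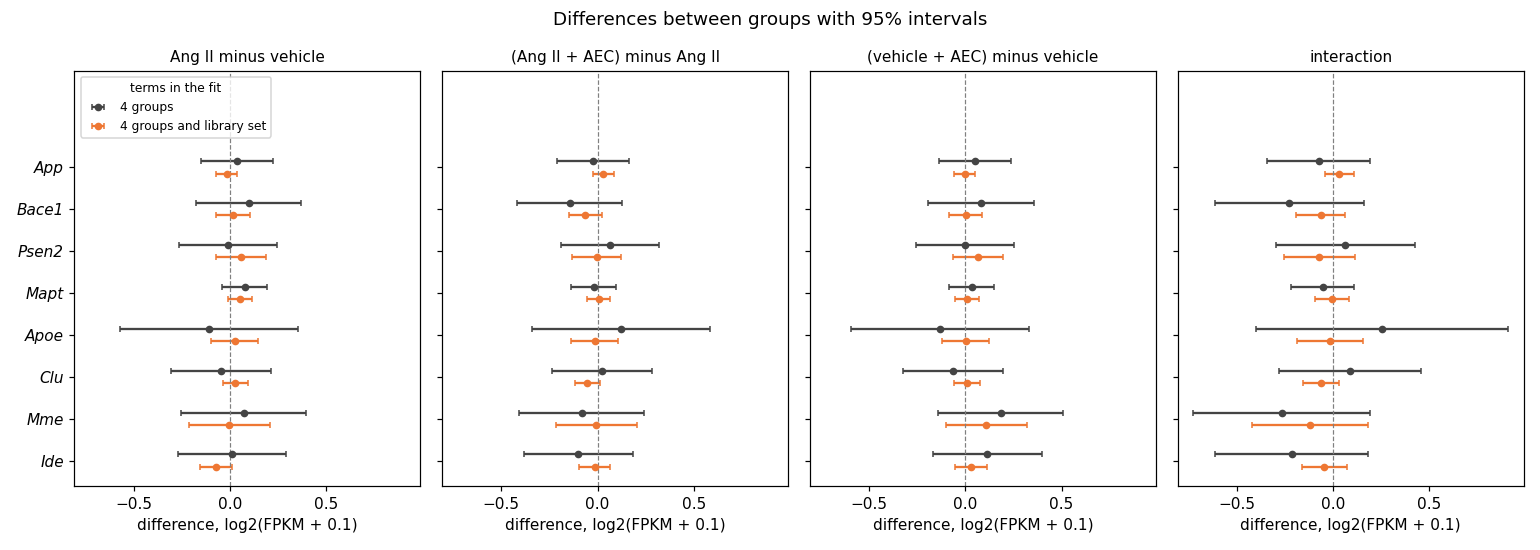
Differences in log2(FPKM + 0.1) between groups for the 8 genes, with 95% intervals from limma, in the fit of the 4 groups (grey) and the fit that also holds the set of libraries (orange). Every interval includes 0, and adding the set narrows the intervals most for Clu, Apoe and App.

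The set of 6 libraries separated the levels of all 8 genes more clearly than any treatment. Since the sets were seen in these data, the following values are a description with no test. Apoe was at 1278, 1377 and 1409 FPKM (lowest, median and highest) in the 6 libraries and at 703, 786 and 873 FPKM in the 18, a ratio of means of 1.75. Clu (292 to 313 against 206 to 236 FPKM) was 1.36 times and Psen2 (5.60 to 7.05 against 4.06 to 5.34 FPKM) 1.33 times as high in the 6 libraries. Thus the 6 libraries lay above the 18 without overlap for 3 genes, as they did for 11.2% of all genes tested.

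The other 5 genes were lower in the 6 libraries, again without overlap, as were 16.3% of all genes tested. Both shares are over all 27286 genes tested, which include those averaging under 1 FPKM. The shares among genes averaging 1 FPKM or more were not counted, so the separation is not read as particular to the 8 genes. The ratio of means was 0.690 for Mme (0.477 to 0.627 against 0.632 to 1.003 FPKM), 0.700 for Ide (9.61 to 12.02 against 13.8 to 16.9 FPKM), 0.709 for Bace1 (7.96 to 9.64 against 11.5 to 13.2 FPKM), 0.800 for App (92.1 to 97.1 against 112 to 124 FPKM) and 0.900 for Mapt (61.1 to 73.1 against 73.5 to 78.7 FPKM). The sets nearly met for Mapt and Mme.

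The direction followed gene length. The genes that were higher in the 6 libraries are the 3 shortest in the deposited table, Apoe with 2138 bases, Clu with 3437 and Psen2 with 4332, and those that were lower are the 5 longest, from Ide with 5823 to App with 12996 bases. Over the 13649 genes whose FPKM averaged 1 or more, the median difference between the sets in log2(FPKM + 0.1) passed from 0.46 at lengths over 1000 and up to 2000 bases to -0.61 over 12000 bases, and the Spearman correlation of the difference with length was -0.521 across genes, which share the same libraries and are not independent replicates. Apoe stood at 0.81 where the median of genes over 2000 and up to 3000 bases was 0.27, and Psen2 at 0.41 where the median of genes over 4000 and up to 5000 bases was -0.081. Ide at -0.51 and Bace1 at -0.49 were below the medians for their lengths, -0.19 and -0.33, while Mapt at -0.15 and App at -0.32 were above theirs, -0.33 and -0.61. The sign of the median of its length class was that of the gene for each of these but Psen2.

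**Figure D3:**
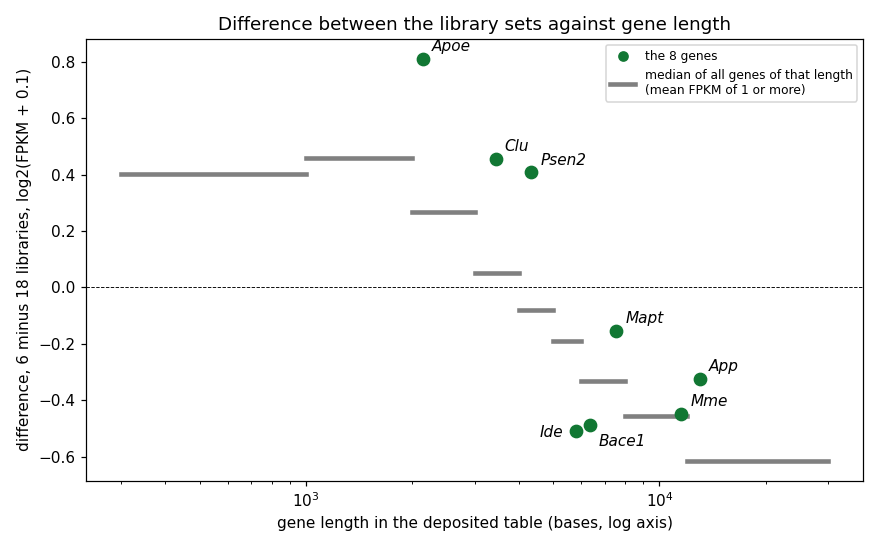
Difference between the 6 and the 18 libraries in log2(FPKM + 0.1) against gene length on a log axis, for the 8 genes (points) and as the median of all genes averaging 1 FPKM or more in 9 length classes (bars). The medians pass from above 0 for short genes to below 0 for long genes, and Apoe, Clu and Psen2 lie above the bar of their class.

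Cell type markers differed between the sets as well. Levels shifted with gene length between the sets, as described above, and the most abundant markers weigh most in a sum. A sum can thus be higher where most of its markers were lower, as for the endothelium (1 of 4 higher). These sums are therefore not read as a difference in cell content. The 5 astrocyte markers summed to 222 to 252 FPKM in the 6 libraries and 243 to 286 FPKM in the 18, with 2 of 5 higher in the 6, so this list was on the whole lower, with overlap, where the astrocyte product Apoe was higher. Sums that were higher in the 6 libraries without overlap were those of neurons (833 to 877 against 741 to 824 FPKM, 3 of 5 markers higher), oligodendrocytes (1093 to 1333 against 894 to 1076 FPKM, 4 of 5), endothelium (74.5 to 91.7 against 47.2 to 64.1 FPKM, 1 of 4), choroid plexus (843 to 1130 against 358 to 777 FPKM, 5 of 7), meningeal fibroblasts (13.1 to 17.4 against 9.48 to 12.03 FPKM, 5 of 5) and striatum (175 to 232 against 125 to 162 FPKM, 4 of 5). Those of microglia (44.5 to 52.4 against 39.8 to 46.2 FPKM, 3 of 5), erythroid cells (115 to 189 against 30.1 to 177 FPKM, 4 of 4), neutrophils (5.08 to 36.8 against 5.95 to 45.0 FPKM, 2 of 4) and pituitary (2.12 to 15.6 against 1.92 to 1572 FPKM, 0 of 4) overlapped. Of these markers, only pituitary ones were at 0 in any mouse. The part of cell type, tissue region or RNA handling in the difference between the sets was not tested.

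The wider pathways were read from 5 gene lists, each compared by the same fit and adjusted over all 27286 genes. Among 10 other secretase genes and partners (such as Adam10 and Ncstn), 12 relatives and binding proteins of App, and 19 tau kinases, tau phosphatases and microtubule associated proteins, 0 reached an unadjusted p-value under 0.05 in any of the 3 comparisons or the interaction by limma. The median difference of the secretase list was 0.067 in log2(FPKM + 0.1) for angiotensin II against vehicle, beside 0.021 over all genes, and 0.0039 with the set of libraries in the fit. In the set of 6 libraries, 3 of the 10 secretase genes, 5 of the 12 App relatives and 7 of the 19 tau genes were higher. Of all genes averaging 1 FPKM or more, 84.6% were higher at lengths over 1000 and up to 2000 bases. Over 12000 bases, 4.93% were. These counts are therefore not read as a result about the lists.

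Of 10 further amyloid-beta degrading enzymes, 1 passed the unadjusted threshold, in the second comparison and in the interaction, beside 2.54% of all genes in each. Mmel1, a close relative of neprilysin, was at 0.857 ± 0.151 FPKM in angiotensin II mice without the cells and 0.675 ± 0.0970 FPKM in those with them (SD, n = 6 each). The difference was -0.30 in log2(FPKM + 0.1) (SE 0.134; limma unadjusted p = 0.0359, adjusted p = 1), and the groups overlapped, at 0.711 to 1.13 and 0.570 to 0.853 FPKM. Its interaction was -0.40 (SE 0.190; limma unadjusted p = 0.0486, adjusted p = 0.931). Both differences were nearly the same with the set of libraries in the fit, -0.30 and -0.39.

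Of 25 other dementia risk genes, 1 passed the unadjusted threshold in vehicle + amnion epithelial cells against vehicle, beside 2.41% of all genes. Abi3, a microglial regulator of the actin cytoskeleton, was at 0.247 ± 0.0802 FPKM with the cells and 0.390 ± 0.188 FPKM without them (SD, n = 6 each; difference -0.45 in log2(FPKM + 0.1), SE 0.217; limma unadjusted p = 0.0487, adjusted p = 0.995; limma unadjusted p = 0.0566 with the set of libraries). The groups overlapped, at 0.156 to 0.370 and 0.210 to 0.729 FPKM. In the other 2 comparisons and the interaction, 0 genes of this list passed in the fit of the 4 groups. With the set of libraries in the fit, 2 genes of the list passed, which are named after their values were seen. Tyrobp, a microglial signalling adaptor, differed by -0.20 (SE 0.097) in the third comparison and by 0.31 (SE 0.138) in the interaction. Chmp2b, a subunit of an endosomal sorting complex, differed by 0.093 (SE 0.045) in the second comparison and by 0.17 (SE 0.064) in the interaction. The limma unadjusted p-values of these 4 estimates were 0.0126 to 0.0498 and each adjusted p was 1, beside 3.54% of all genes passing in the third comparison, 3.90% in the second and 3.41% in the interaction.

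The levels of the 8 genes were also compared with each other from mouse to mouse, within the 18 libraries only, because the sets would impose a correlation on every pair. Of 28 pairs, 2 had a Pearson correlation with an adjusted p-value under 0.05 (permutation test, 100000 resamples, Benjamini-Hochberg over the 28 pairs). Mapt and Ide were inversely related (r = -0.776, permutation p = 0.00019, adjusted p = 0.00532; Spearman's rho = -0.711, permutation p = 0.00139, adjusted p = 0.0389). Without the 2 mice farthest from the median of Mapt, r was -0.641, and in the 6 libraries it was -0.840. Mapt and Apoe rose together (r = 0.673, permutation p = 0.00237, adjusted p = 0.0332; rho = 0.655, permutation p = 0.00366, adjusted p = 0.0512; r = 0.623 without the 2 farthest mice), but in the 6 libraries r was -0.693. The sign of that relation was therefore not the same in both sets, although a correlation over 6 mice is imprecise.

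**Figure D4:**
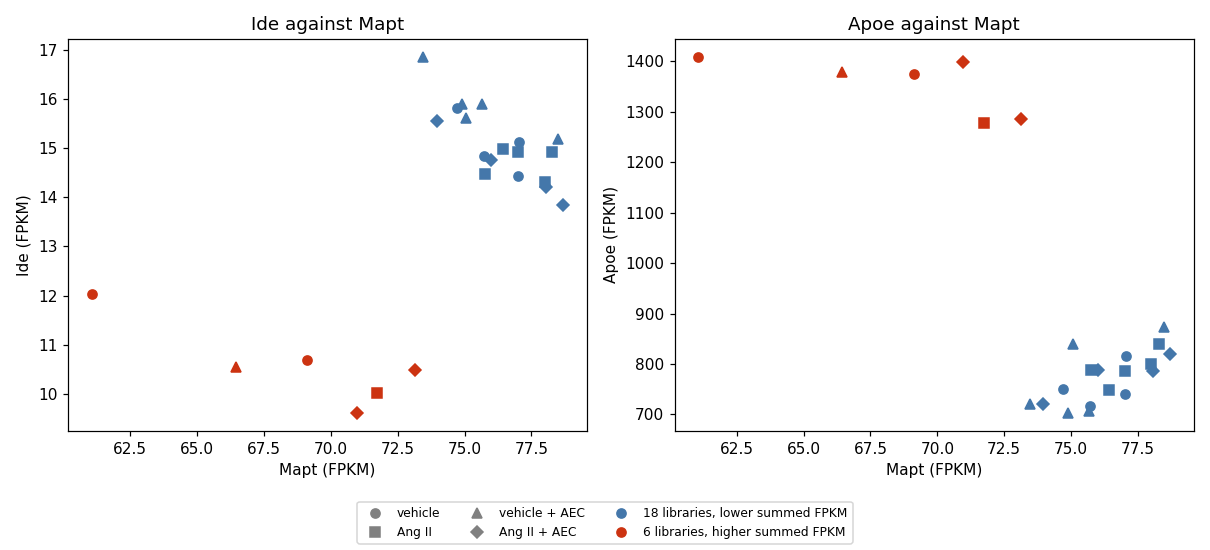
Ide (left) and Apoe (right) against Mapt in FPKM, 1 point per mouse, with the marker shape for the group and the colour for the library set; the axes do not start at 0. Ide falls as Mapt rises within the 18 libraries and within the 6, whereas Apoe rises with Mapt within the 18 libraries alone.

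The summed FPKM of a library was also compared with these genes within the 18 libraries, and it moved with some of them. Over 8 such relations, its Pearson correlation was 0.770 with Mapt (permutation p = 0.00023, adjusted p = 0.00132; rho = 0.738, permutation p = 0.00064, adjusted p = 0.00492; r = 0.696 without the 2 libraries farthest from the median sum). It was 0.766 with Apoe (permutation p = 0.00033, adjusted p = 0.00132; rho = 0.728, permutation p = 0.00123, adjusted p = 0.00492; r = 0.633 without those 2). With Clu it was 0.560 (permutation p = 0.0162, adjusted p = 0.0432; rho = 0.529, permutation p = 0.0262, adjusted p = 0.0698; r = 0.443 without those 2). With App it was -0.480 (permutation p = 0.0435, adjusted p = 0.0752; rho = -0.453, permutation p = 0.0594, adjusted p = 0.0882; r = -0.259 without those 2). With Ide it was -0.472 (permutation p = 0.0470, adjusted p = 0.0752; rho = -0.428, permutation p = 0.0772, adjusted p = 0.0882; r = -0.626 without those 2). The adjusted p-values of both coefficients for Bace1, Psen2 and Mme were above 0.05. For Mapt, the positive relation within the 18 libraries was opposite to its difference between the sets. It was lower in the 6 libraries with the higher sums (ratio of means 0.900). The part of the summed FPKM of the libraries in the relations of Mapt with Ide and Apoe was not tested.

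For each of the 8 genes, the transcripts most like it across the 18 libraries were taken as the 3 with the highest Pearson correlation among 13649 genes, as a description without a test. Mapt varied most like Mag (r = 0.898), a myelin gene, and Syp and Cend1 (0.892 and 0.890), of which Syp encodes synaptophysin of synaptic vesicles. Apoe varied most like Pmm1, Sae1 and Cox4i1 (0.923, 0.907 and 0.905), Clu like Capns1, Atcay and Mif (0.857, 0.841 and 0.823), and Psen2 like Stub1, Bcl2l1 and Nmt1 (0.817, 0.811 and 0.798). None of these was another of the 8 genes.

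App varied most like Gda, Gpr158 and Rtn3 (r = 0.844, 0.844 and 0.822), of which Rtn3 encodes a reticulon that binds beta-secretase. Mme varied most like Fam49a, Pde1a and Gpd2 (0.875, 0.838 and 0.828), Ide like D930016D06Rik, Cul1 and Fmnl2 (0.783, 0.777 and 0.767), and Bace1 like Pstpip2, Erbb3 and Gm44524 (0.793, 0.698 and 0.697). The same correlations in the 6 libraries ranged from -0.728 for Mme with Fam49a to 0.824 for Apoe with Cox4i1, and most of them were negative. Each was negative for Mapt (-0.267 with Mag, -0.450 with Syp and -0.436 with Cend1). Each was also negative for Psen2 (-0.675 with Stub1, -0.281 with Bcl2l1 and -0.108 with Nmt1). Others stayed positive, such as App with Rtn3 (0.633). The genes were picked for their high correlation in the 18 libraries, so lower values elsewhere follow from the selection. A correlation over 6 mice is also imprecise. No difference between the sets is therefore read from these values.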

How the data were processed

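Poly(A)-selected brain RNA of 24 male mice was sequenced by the study. The authors deposited 1 table of FPKM values per gene and mouse, with gene lengths and GRCm38 coordinates, after mapping to the Ensembl mouse genome. The submitters' processing notes name DESeq 1.10.1. Which aligner and counter were used, and whether strand was, is not given in the sources used here. Mice were grouped by the treatment in the labels.

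Here, log2(FPKM + 0.1) was tested with limma 3.58.1 in R 4.3.3 (4 groups in one fit, trend on mean expression) over the 27286 genes that exceeded 0 in 6 or more mice, with Benjamini-Hochberg adjustment, so folds of low genes are understated. This replaced the authors' count model because the table holds FPKM. Single genes also had exact permutation tests. All FPKM values (100%) were whole multiples of 1 read, within 0.1 reads, which gave reads per mouse. No more than the spread between mice is covered by the p-values. Correlations used scipy 1.17.1. The fits were tested on simulated data.

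All 8 genes were named. From each list and comparison, at most 3 genes of lowest unadjusted p-value under 0.05 were named, and for each of the 8 genes the 3 most correlated genes. A further list, of lipoprotein genes, is not reported here. The 8 genes, the lists and the library sets were chosen with earlier results of these data known. The alternatives were a pseudocount of 1 or 0.01, other filters, only the compared groups, the replicate block, median ratio scaling, voom on recovered reads, the library set as a term, the 18 libraries alone, and each mouse left out.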

Additional observations from a re-analysis of the deposited data

Results flagged for a closer look

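Dixon's test at the 95% level was run on 32 combinations of gene and group (8 genes in 4 groups of 6 mice). In 10 of them a single mouse lay far from the other 5, where chance alone gives about 1 in 20. The 32 combinations share libraries, so they are not separate trials at that rate. The share of all genes flagged by this rule was not computed. Of all genes tested, 11.2% had the 6 libraries wholly above the other 18 and 16.3% wholly below, so the flags are not read as particular to the 8 genes. All 10 were angiotensin II replicate 5 or vehicle + amnion epithelial cells replicate 6, which are the only libraries of their groups in the set of 6 with the higher summed FPKM. With angiotensin II, replicate 5 was highest for Apoe at 1278 FPKM and Clu at 299 FPKM, and lowest for App at 97.1 FPKM, Bace1 at 9.64 FPKM and Ide at 10.02 FPKM. With vehicle + amnion epithelial cells, replicate 6 was highest for Apoe at 1378 FPKM and Clu at 302 FPKM, and lowest for App at 92.1 FPKM, Bace1 at 8.48 FPKM and Ide at 10.55 FPKM. In the groups with 2 such libraries, no mouse was flagged.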

How the results depend on the processing

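The count of 0 of the 8 genes at an unadjusted p-value under 0.05 was unchanged in the 3 comparisons and the interaction under each alternative run, including each fit that left out 1 mouse (0 to 0 of 8), except that 1 gene, Psen2, passed in vehicle + amnion epithelial cells against vehicle in the 18 libraries alone. With the replicate block, 0 of 8 passed in each, while the number of all genes passing rose from 604 to 950, 694 to 993, 658 to 1036 and, for the interaction, 692 to 1416. The numbers were not taken as pairs, because no label links them and same-numbered mice did not all correlate over 0.1. Their correlations were -0.224 to 0.797 (median 0.352), 28 of 36 were over 0.1, and 7 of 24 mice correlated best with their own number. Replicates 5 and 6 hold all 6 libraries of the higher summed FPKM. Mme was not tested with a mean FPKM of at least 1. The order of levels was the same in both sets.

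Differences of single genes, in log2(FPKM + 0.1), turned sign mainly with the library sets, and the estimates above for all 24 mice carry no direction. With the set as a term, they became 0.026 for Apoe, -0.017 for App, 0.029 for Clu, -0.073 for Ide, -0.0036 for Mme and 0.060 for Psen2 in angiotensin II against vehicle. For the cells in angiotensin II mice they became -0.015 for Apoe, 0.030 for App, -0.053 for Clu, 0.0049 for Mapt and -0.0051 for Psen2. In vehicle + amnion epithelial cells against vehicle they became 0.0019 for Apoe, -0.0031 for App, 0.0099 for Clu and 0.066 for Psen2, and in the interaction -0.017 for Apoe, 0.033 for App, -0.063 for Clu and -0.072 for Psen2.

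In the 18 libraries alone, the values that turned were 0.070 for Apoe, -0.027 for App, -0.010 for Bace1, 0.044 for Clu, -0.031 for Ide and 0.091 for Psen2 in the first of these, -0.027 for Apoe, 0.052 for App, -0.072 for Clu and -0.033 for Psen2 in the second, 0.020 for Apoe, 0.019 for Clu, -0.012 for Mapt and 0.13 for Psen2 in the third, and -0.047 for Apoe, 0.047 for App, -0.091 for Clu, 0.0036 for Mapt and -0.17 for Psen2 in the interaction. Median ratio scaling gave -0.0099 for Ide in angiotensin II against vehicle, and voom gave 0.0019 for Psen2 in vehicle + amnion epithelial cells against vehicle. The cause was not tested.

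Leaving out 1 mouse turned the sign of 13 differences. In angiotensin II against vehicle these ranged over the fits from -0.22 to 0.012 for Apoe, -0.0088 to 0.079 for App, -0.11 to 0.017 for Clu, -0.059 to 0.10 for Ide, -0.0047 to 0.17 for Mme and -0.073 to 0.086 for Psen2. For the cells in angiotensin II mice they ranged from -0.066 to 0.028 for App, -0.052 to 0.090 for Clu and -0.0077 to 0.13 for Psen2, in vehicle + amnion epithelial cells against vehicle from -0.0052 to 0.18 for Bace1, -0.015 to 0.064 for Mapt and -0.064 to 0.092 for Psen2, and in the interaction from -0.030 to 0.13 for Psen2. Depth limits Mme most, with 92 reads in its lowest mouse.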
